A study of Mus musculus with 4 samples.

Results

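Messenger RNA ratios of 10 genes of the cell division cycle were compared between NIH3T3 cells transfected with Erbb2 and untransfected NIH3T3 cells. The genes were given as a list of symbols: the mitotic genes Top2a, Kif20a and Birc5, the replication genes Mcm5, Pcna and Rrm2, the cyclin genes Ccnd2, Ccne1 and Ccna2, and the CDK partner gene Cks1b. All 10 had a value on every array, among 6327 genes that did. NIH3T3, an established line of mouse embryonic fibroblasts, is widely used to study growth control, and ERBB2 is a growth factor receptor with tyrosine kinase activity. RNA of the line overexpressing Erbb2 was set against RNA of the line with normal Erbb2 expression on 4 two-colour arrays. The dye of the transfected RNA was Cy5 for arrays 1 and 2 and was swapped to Cy3 for the other two. The sources used here do not give the promoter of the transgene, the number of clones or any use of an empty vector. The series calls the arrays technical replicates, so there was 1 biological sample per line, and all errors and p-values below cover the spread between arrays only.

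A dividing cell copies its DNA in S phase and separates the copies in mitosis. Cyclins bind and switch on cyclin-dependent kinases (CDKs), which drive the passage from one phase to the next: D-type cyclins act in G1, cyclin E at the entry into S phase, and cyclin A through S phase and G2. Genes of DNA replication are commonly switched on by E2F factors, which the retinoblastoma family of pocket proteins restrains, whereas many mitotic genes are read later in the cycle through CHR elements and CCAAT boxes in their promoters. Receptor tyrosine kinases such as ERBB2 feed growth signals into the G1 part of this cycle.

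Promoters are shown for Top2a, Cks1b, Birc5 and Ccne1, whose means lay above 0 on every array, and for Mcm5, the replication gene with the highest mean, to set the sequence beside the values. RefSeq promoters (build GRCm38.p6) were found for 7 of the 10 genes. The 250 bases before the start were searched on both strands for a CHR element (TTTGAA), an E2F site (TTTNNCG, with C or G at each N) and a CCAAT box (CCAAT). Capitals mark every match to any of them, and a match on the other strand appears as its reverse complement.
Top2a (chr11:99024190-99024439, minus strand): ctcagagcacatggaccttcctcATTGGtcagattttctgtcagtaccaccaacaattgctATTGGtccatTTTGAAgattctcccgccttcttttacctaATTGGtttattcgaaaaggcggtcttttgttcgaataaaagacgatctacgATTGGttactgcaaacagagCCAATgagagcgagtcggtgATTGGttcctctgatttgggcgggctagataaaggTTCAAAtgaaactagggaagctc
Cks1b (chr3:89418292-89418541, minus strand): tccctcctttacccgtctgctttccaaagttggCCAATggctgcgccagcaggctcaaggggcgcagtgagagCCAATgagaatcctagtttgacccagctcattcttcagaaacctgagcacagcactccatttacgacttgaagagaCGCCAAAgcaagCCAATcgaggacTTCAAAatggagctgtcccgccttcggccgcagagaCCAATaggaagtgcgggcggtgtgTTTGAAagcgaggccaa
Mcm5 (chr8:75109259-75109508, plus strand): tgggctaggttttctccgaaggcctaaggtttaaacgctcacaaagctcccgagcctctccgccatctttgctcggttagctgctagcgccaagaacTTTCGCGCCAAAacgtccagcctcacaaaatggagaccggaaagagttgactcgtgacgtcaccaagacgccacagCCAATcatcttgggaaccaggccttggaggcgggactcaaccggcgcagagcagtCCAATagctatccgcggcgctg
Birc5 (chr11:117848987-117849236, plus strand): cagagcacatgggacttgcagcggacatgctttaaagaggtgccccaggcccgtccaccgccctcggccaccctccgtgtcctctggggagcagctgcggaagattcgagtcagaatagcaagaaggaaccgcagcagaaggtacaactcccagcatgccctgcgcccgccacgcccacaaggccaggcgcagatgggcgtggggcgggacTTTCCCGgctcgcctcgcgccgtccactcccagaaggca
Ccne1 (chr7:38107491-38107740, minus strand): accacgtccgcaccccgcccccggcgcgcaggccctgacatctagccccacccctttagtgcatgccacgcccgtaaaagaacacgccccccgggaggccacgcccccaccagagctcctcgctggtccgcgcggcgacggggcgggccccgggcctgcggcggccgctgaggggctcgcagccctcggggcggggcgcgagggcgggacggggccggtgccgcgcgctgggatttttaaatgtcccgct

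Of the 7 promoters, 2 held a CHR element, those of Top2a and Cks1b, against 5252 of all 32851 promoters of this length. In Top2a the matches lay at bases -179 to -174 and, on the other strand, -23 to -18, counted back from -1 just before the start. In Cks1b they lay at -17 to -12 and, on the other strand, at -77 to -72. An E2F site was held by 3 promoters (Cks1b, Mcm5 and Birc5), against 5.51% of all, so the promoter of Cks1b held all 3 motifs. Mcm5 had a pair of overlapping matches on opposite strands, at -153 to -147 and -148 to -142. The CCAAT box was found in 5 promoters against 33.8% of all, with 6 boxes in Top2a and 4 in Cks1b. Ccne1 had none of the 3 motifs, and the promoters of Kif20a, Ccna2 and Ccnd2 were not analysed here. The matches are descriptions of letters, and the arrays do not measure binding.

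Values below are deposited log2 ratios, likely transfected over untransfected, but the direction is not stated. The swapped arrays were taken to have been turned to a common direction before deposit, which no source used here states. If so, all signs would turn together were the direction the other. If not, the signs of arrays 3 and 4 would turn against those of arrays 1 and 2, and every mean would change. A value of 1 is a ratio of 2, and ratios hold no level, so neither the abundance of any gene nor the presence of fibroblast markers could be read. Erbb2 had no named probe, and the labels could not be checked by the level of the transfected gene. Of 20355 rows, 76.8% to 94.6% had a value on an array. The ratios of any pair of arrays correlated weakly across genes, which are not independent replicates (Pearson's r from 0.123 to 0.202, Spearman's coefficient from 0.091 to 0.208). Of the cell type markers, 7 of 12 fibroblast genes were measured, with list means of -1.62 to -1.12 over the arrays, and 3 of 6 epithelial genes, with -0.24 to 0.85; of the leukocyte and adipocyte lists 2 of 6 and 3 of 4 were measured, with -1.02 to -0.37 and -1.004 to 0.57. Single-gene means ran from -4.91 to 0.89 in the fibroblast list, so its list means do not describe each gene. They ran from -0.52 to 0.86, -1.17 to -0.22 and -0.65 to 0.27 in the epithelial, leukocyte and adipocyte lists. Of the 7 fibroblast genes, 1 lay above 0 on all arrays and 3 below, against 9.58% and 13% of all genes. Limma called 0 of these genes. At an unadjusted p under 0.05 there were 3 fibroblast, 1 epithelial, 1 leukocyte and 0 adipocyte genes, against 11.5% of all genes. The part of the marker genes in the ratios below was not tested. The median gene of the table had a mean of -0.08. In the lower part of the table the rows of arrays 2 to 4 sit 3 or 4 rows away from those of array 1, and they were read with that offset. Birc5 and Ccnd2 rest on such rows alone, and Pcna and Ccna2 on 1 probe there and 1 in the first 6000 rows, which need no offset.

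Among the mitotic genes, Top2a lay above 0 on every array, Birc5 on arrays 2 to 4 and, as the mean of its probes, on array 1 too, and Kif20a did not. Birc5 encodes survivin, a subunit of the chromosomal passenger complex. Its log2 ratios were 0.10, 1.90, 2.02 and 1.77 on arrays 1 to 4, and the mean was 1.45 ± 0.91 (SD, n = 4), or 2.72-fold. Arrays 2 to 4 were close to one another and array 1 was near 0. The probe with a value on every array had -0.05 on array 1, and a second probe, with a value on array 1 alone (0.24), brought the gene's mean there above 0. Only 83 of the 6327 genes had a higher mean. Limma's unadjusted p was 0.013 and its adjusted p over all genes 0.369, with a 95% interval of 0.45 to 2.44.

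Top2a encodes topoisomerase II alpha, which untangles DNA for chromosome condensation and separation. It had 0.38, 0.96, 1.12 and 0.63 on arrays 1 to 4, a mean of 0.77 ± 0.33, or 1.71-fold. The values lay on 1 side of 0 in both dye orientations, with means of 0.67 with the transfected RNA in Cy5 and 0.88 in Cy3. The limma p was 0.0461 before and 0.429 after adjustment (95% interval 0.02 to 1.53).

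Kif20a encodes a kinesin motor of the late mitotic spindle and of cytokinesis. It had 0.43, -0.50, -2.77 and -0.38 on arrays 1 to 4, a mean of -0.81 ± 1.37, so the spread between arrays was larger than the mean. Array 3 stood lowest, and there only 1 of the 2 probes had a value. The first probe had 1.41, -0.29, -2.77 and 0.88, and the second had -0.55, -0.71 and -1.64 on arrays 1, 2 and 4. The probes had the same sign on 1 of the 3 arrays that measured both. Over all genes with exactly 2 probes, the pair shared a sign in 55.8% of 5684 such comparisons. The fitted mean of Kif20a was -0.21 without array 3 and -1.41 without array 4 (adjusted p = 0.552 with all arrays).

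**Figure D1:**
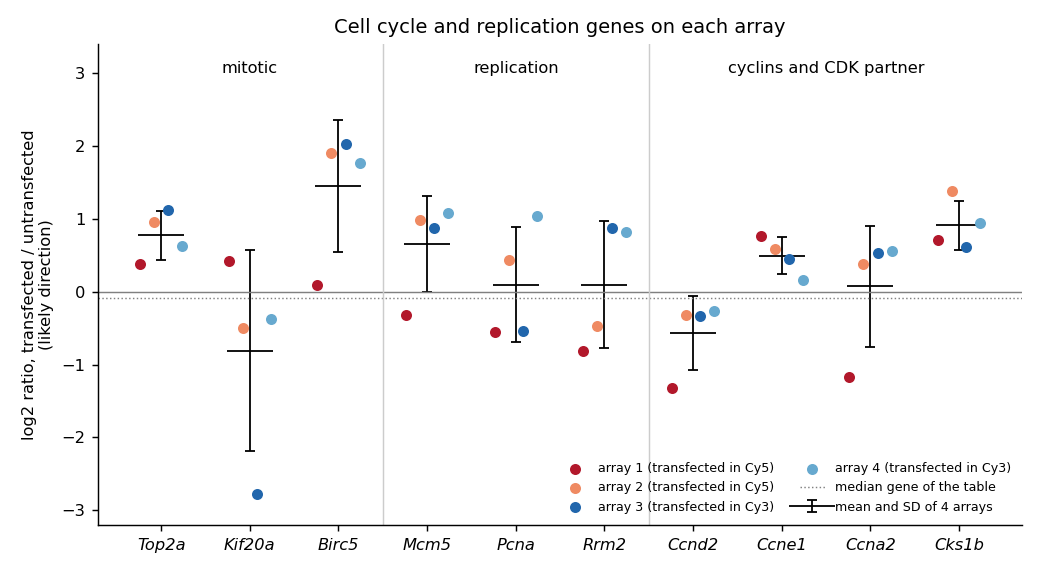
Log2 ratios of the 10 genes on each of the 4 arrays (coloured points), with the mean and SD over arrays (black bars), a line at 0 and a dotted line at the median gene of the table (-0.08). Top2a, Ccne1 and Cks1b lie above 0 on all 4 arrays, as does Birc5 through a probe that only array 1 measured, Ccnd2 below 0 on all 4, and array 1 is the lowest point for 7 of the 10 genes.

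The replication genes had means nearer to 0 and mixed signs. Mcm5 encodes a subunit of the MCM helicase that opens DNA at replication origins. It had -0.32, 0.98, 0.88 and 1.09 on arrays 1 to 4, a mean of 0.66 ± 0.66 (adjusted p = 0.511). Arrays 2 to 4 were close together above 0, and array 1 lay below it. The fitted mean was 0.98 without array 1 and 0.33 without array 2.

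Pcna encodes the sliding clamp that holds DNA polymerases on the template. Its means of 2 probes were -0.56, 0.44, -0.53 and 1.04, with an overall mean of 0.10 ± 0.78 (adjusted p = 0.938). The arrays fell on both sides of 0 within each dye orientation. The probes agreed in sign on 3 of 4 arrays, where pairs of probes did so in 55.8% of comparisons over all genes with exactly 2 probes. Array 3 separated the Pcna probes, with -1.29 on the first and 0.22 on the other.

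Rrm2 encodes the small subunit of ribonucleotide reductase, which makes deoxyribonucleotides for DNA synthesis. It had -0.82, -0.48, 0.87 and 0.82 on arrays 1 to 4 and a mean of 0.10 ± 0.87 (adjusted p = 0.908). The gene's mean was -0.65 with the transfected RNA in Cy5 and 0.84 in Cy3. On array 2 its 2 probes had opposite signs, 0.55 and -1.50, so the sign there rests on 1 probe. On the other 3 arrays the probes shared a sign, against 55.8% of comparisons over all genes with exactly 2 probes.

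Among the cyclin genes, Ccne1 was the only one above 0 on every array. Ccne1, cyclin E1, had 0.77, 0.59, 0.45 and 0.16, a mean of 0.49 ± 0.25 and a fold of 1.41, the smallest SD of the 10 genes. The limma adjusted p was 0.535, and the 95% interval of -0.21 to 1.20 includes 0.

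Ccnd2, cyclin D2, was the only member below 0 on every array, with -1.32, -0.32, -0.33 and -0.27 and a mean of -0.56 ± 0.51 (adjusted p = 0.535). Arrays 2 to 4 agreed closely and array 1 lay about a unit lower. Only 1 of its 2 probes had a usable value. Its mean was -0.29 with all rows as deposited, -0.10 and -0.18 with the offset 1 row smaller or larger, and -2.71 with extreme ratios kept. It was -0.31 without array 1 and -0.81 without array 2.

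Ccna2, cyclin A2, had -1.17, 0.38, 0.53 and 0.56, a mean of 0.07 ± 0.83 (adjusted p = 0.948). Array 1 was again apart from the others. On array 1 both probes were below 0, with -1.60 in the first rows and -0.73 in the lower rows.

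Cks1b encodes a small CDK-binding protein that also helps the SCF ubiquitin ligase recognise CDK inhibitors. It had 0.71, 1.38, 0.62 and 0.94 on arrays 1 to 4, a mean of 0.91 ± 0.34 and a fold of 1.88. Both dye orientations lay above 0, at 1.05 with the transfected RNA in Cy5 and 0.78 in Cy3. Its 95% interval was 0.16 to 1.66, with a limma p of 0.0256 and an adjusted p of 0.387. Its probe lies in the first 6000 rows, where no offset was needed, as do those of Top2a, Ccne1, Mcm5, Rrm2 and Kif20a.

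Taking the 10 genes as a group, limma called 0 of them and 0 of 6327 genes (0%) at an adjusted p under 0.05. The fit left 2 residual degrees of freedom, and a missed threshold does not show that a gene did not differ. At an unadjusted p under 0.05 there were 3 members, all with a mean above 0 (Birc5, Cks1b and Top2a), where 11.5% of all genes passed in either direction and 4.05% with a mean above 0. Without the dye term limma called 6 genes (0.0948%), and 0 were members. Of the members, 4 lay above 0 on all 4 arrays against 9.58% of all genes (3 if Birc5 is read from the probe with a value on every array), and 1 lay below 0 on all 4 against 13%. With each array centred on its median, Birc5 on array 1 moved to -0.01, which left 3 members above 0 on every array, against 11% of all genes. Of the 10 means 8 were above 0, against 43.9% of all genes. The median of the members' means was 0.30 and that of all genes -0.08. The members were chosen with results of these arrays known, so these shares describe them and test nothing.

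Mitotic and replication members were then set against each other within each array. The mean of Top2a, Kif20a and Birc5 was 0.30, 0.79, 0.12 and 0.67 on arrays 1 to 4, and that of Mcm5, Pcna and Rrm2 was -0.56, 0.32, 0.40 and 0.98. The difference was 0.87, 0.47, -0.28 and -0.31, a mean of 0.19 ± 0.58, so the spread was larger than the difference. The mitotic genes lay higher on both arrays with the transfected RNA in Cy5 (0.67) and lower on both with it in Cy3 (-0.30). From Cy5 to Cy3 the mitotic mean went from 0.54 to 0.40 and the replication mean from -0.12 to 0.69. Kif20a (-0.04 and -1.58) and Rrm2 (-0.65 and 0.84) had the widest gaps between the orientations among the 6 genes. Without Kif20a, a choice made after seeing its values, the difference was 0.80, 1.11, 1.17 and 0.22. Its mean was 0.83 ± 0.44, above 0 on 4 of 4 arrays. The mitotic side was then Top2a and Birc5, and on array 4 Top2a (0.63) lay below the replication mean. The Birc5 mean was -0.24 with all rows as deposited, and -0.033 and 0.060 with the offset 1 row smaller or larger. The difference without Kif20a was not formed under those settings. Without array 1 the difference of all 6 genes was -0.04 as a plain mean of the arrays left and 0.09 with both dye orientations weighed equally, and with lower rows moved by 1 row fewer or more it was -0.29 and -0.17. No order of the 2 groups could be read from the full set.

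**Figure D2:**
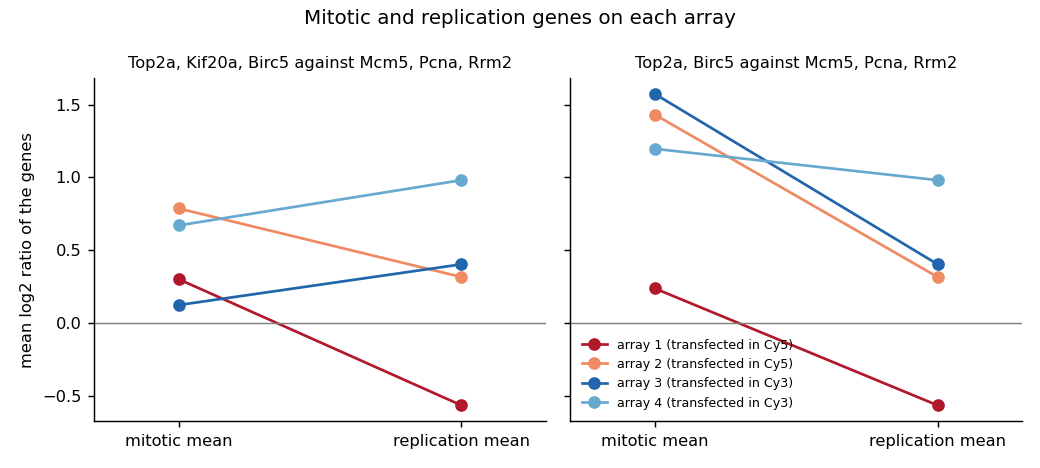
Mean log2 ratio of the mitotic genes (left end of each line) and of the replication genes (right end), 1 line per array, with Kif20a (left panel) and without it (right panel). With Kif20a 2 lines fall and 2 rise. Without it all 4 fall from the mitotic to the replication mean, by 0.22 to 1.17. The mitotic mean of the right panel is that of Top2a and Birc5, and Birc5 was read with a row offset.

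Array 1 gave lower ratios than the other arrays for much of the list, a pattern noticed after the values were seen. It was the lowest array for 7 of the 10 members, against 17.7% of all genes, and for 8 after centring, against 24.5%. The mean of the 10 genes was -0.18 on array 1 and 0.53, 0.29 and 0.63 on arrays 2 to 4. For 4 members (Birc5, Mcm5, Ccnd2 and Ccna2) array 1 lay far below the other 3, with a gap over the range past Dixon's 95% critical value, which held for 0.616% of all genes. Birc5 and Ccnd2, and Ccna2 in part, rest on lower rows, where arrays 2 to 4 were read with an offset against array 1. Mcm5 needs no offset. The part of the offset in these gaps was not tested. In the lists of other cell cycle genes, the median of DNA replication genes was 0.01 on array 1 and 0.13 to 0.45 on the others, and that of mitosis genes was -0.07 on array 1 and -0.16 to 0.06 on the others. Without array 1 the mean of the 10 genes was 0.48, against 0.32 with it. The part of array 1 in these results was not tested beyond these values.

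The row offset bears on the members of the lower table. In the 1000 rows on either side of the Birc5 probe, array 1 correlated with arrays 2 to 4 at a mean r of 0.064 when those were read 3 rows higher, and at -0.013 with no offset. The same window around the Ccnd2 probe gave 0.123 against -0.007. Around the lower probes of Pcna and Ccna2 the peak at 3 rows was lower (0.045 and 0.039) and less apart from its neighbours. The Pcna and Ccna2 windows share most of their rows. At 3 rows the single arrays of the Pcna window had r from -0.0003 to 0.108. Read as deposited, the Birc5 probe had 0.84, -0.48 and -1.92 on arrays 2 to 4, and the gene's mean was -0.24; with the offset 1 row smaller or larger it was -0.033 and 0.060. Arrays 2 to 4 line up with one another at any offset, so their likeness at 3 rows does not bear on it. These correlations are across rows of the same arrays and carry no p.

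**Figure D3:**
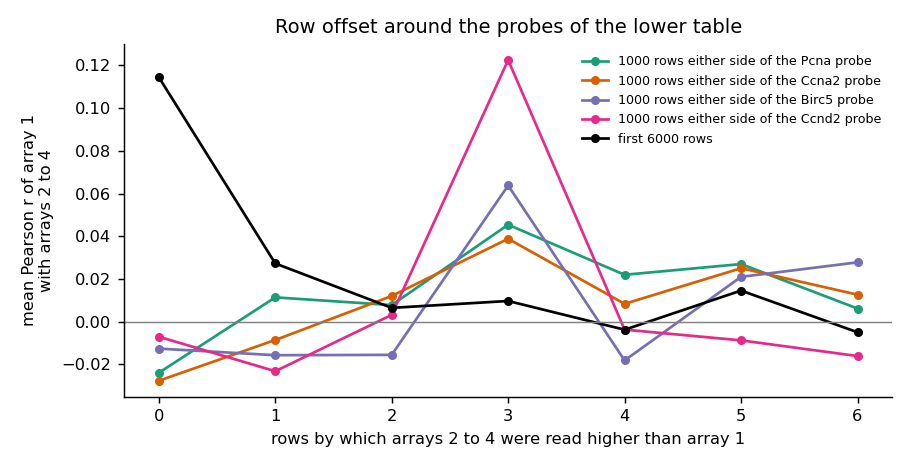
Mean Pearson correlation, across rows, of array 1 with arrays 2 to 4, against the number of rows by which arrays 2 to 4 were read higher, for windows of 1000 rows on either side of 4 lower-table probes and for the first 6000 rows. The windows peak at 3 rows (0.039 to 0.123) and the first rows peak at 0 (0.115). The Pcna and Ccna2 windows share most of their rows.

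Other genes of the cell cycle were read from 4 lists. Of 57 DNA replication genes 17 had a value on every array, and their means had a median of 0.12. Limma called 0, and at an unadjusted p under 0.05 there were 2, both with a mean below 0. Of all genes, 11.5% passed in either direction and 4.05% with a mean above 0. Rpa1, the large subunit of the single-strand DNA binding protein RPA, had -2.44, -1.64, -1.57 and -1.77, a mean of -1.85 ± 0.40 and a 3.62-fold lower ratio (adjusted p = 0.268). Its mean was -0.59 with all rows as deposited and -0.45 with the offset 1 row larger. Prim1, a primase subunit, had -1.05, -0.43, -0.93 and -0.72, a mean of -0.78 ± 0.27 (adjusted p = 0.421), and -0.29 with the offset 1 row smaller. Both lay below 0 on every array, opposite to Mcm5 on arrays 2 to 4. On the other side, the replication licensing inhibitor gene Gmnn had 0.01, 0.74, 0.81 and 1.08, a mean of 0.66 ± 0.46 (adjusted p = 0.476). Chaf1a, a subunit of the histone chaperone CAF-1, had 0.03, 0.71, 1.23 and 0.57, a mean of 0.64 ± 0.50 (adjusted p = 0.491). All 4 of these genes have probes only in the lower rows.

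Of 68 mitosis genes 30 were measured, with a median of -0.12. Limma called 0, and 1 passed at an unadjusted p under 0.05, against 11.5% of all genes. Of the 30, 2 lay above 0 on all arrays, 1 below, and 27 had mixed signs. Of all genes, 9.58% lay above 0 on all arrays and 13% below. Espl1, which encodes separase, had 0.48, 0.32, 3.64 and 0.27, so its mean of 1.18 ± 1.64 rests on array 3 and was 0.34 without it and 2.02 without array 4. With the offset 1 row smaller or larger the mean was 0.42 and 0.44. Cdca3, a regulator of mitotic entry, had -0.34, -0.75, -1.65 and -0.44, a mean of -0.80 ± 0.59 (adjusted p = 0.46). The measured partners of Birc5 in the chromosomal passenger complex, looked up after the values were seen, had means below 0. Aurkb, another gene of this complex on the list, did not have a value on every array. Incenp, its scaffold, had -0.77 ± 1.11, and Cdca8, which encodes borealin, had -0.82 ± 1.25, the 1 mitosis gene with an unadjusted p under 0.05 (adjusted p = 0.421). Both had arrays on either side of 0. Cdca8 had 0.44 and 0.008 with the transfected RNA in Cy5 and -1.52 and -2.19 with it in Cy3. Its sign thus followed the dye orientation, and the dye term of the fit took up that part of its spread.

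The list of 29 G1 and S phase regulators had 17 measured genes with a median of -0.08, beside -0.08 for all genes. Limma called 0, and 4 passed at an unadjusted p under 0.05, all with a mean below 0. Of all genes, 11.5% passed in either direction and 4.05% with a mean above 0, so most that passed lay below 0. A pair of them encode pocket proteins that bind E2F factors. Rbl1 (p107) had -0.86, -3.49, -2.99 and -0.42, a mean of -1.94 ± 1.53 (adjusted p = 0.388). It was below 0 on every array but varied widely within each dye orientation. Rbl2 (p130) had -1.32, -1.41, -1.03 and -1.05, a mean of -1.20 ± 0.19 and a 2.30-fold lower ratio (adjusted p = 0.31). Its 2 probes differed: the first had a mean of -2.21 with all arrays below -1.7, and the other had -0.19. Both genes have probes only in the first 6000 rows. The third pocket protein gene, Rb1, looked up after the values were seen, had -0.42 ± 0.77. Ccnh, cyclin H of the CDK-activating kinase, had -0.74, -1.33, -0.32 and -0.93, a mean of -0.83 ± 0.42 (adjusted p = 0.421). Its 1 probe lies in the last rows, read with an offset of 4 rows and outside the windows examined around member probes. The Ccnh mean was -0.71 with all rows as deposited and -1.43 with the offset 1 row smaller. Tfdp2, an E2F partner and the fourth of these genes, named after its values were seen, had -0.87 ± 1.29 with mixed signs. Its values were -1.74 and -2.03 with the transfected RNA in Cy5 and 0.80 and -0.51 with it in Cy3. Cul1, the scaffold of the SCF ligase with which Cks1b works, had 0.35, 0.68, 1.42 and 0.42, a mean of 0.72 ± 0.49 (adjusted p = 0.47), or 0.0074 with all rows as deposited. Cul1 and Cks1b both lay above 0 on every array, while Skp1, another SCF subunit looked up after the values were seen, had -0.32 ± 0.88.

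Of 8 CDK inhibitor genes 3 were measured. Cdkn1a, which encodes p21, had 0.23, 0.09, 0.16 and 0.35, a mean of 0.21 ± 0.11, with a small spread but a 95% interval of -0.49 to 0.91 (adjusted p = 0.779). Cdkn2c had -0.79, -0.88, -1.86 and 0.01, a mean of -0.88 ± 0.77 (adjusted p = 0.476). Cdkn2d had 1.05, 1.95, -0.25 and 0.65, a mean of 0.85 ± 0.91 (adjusted p = 0.432). The INK4 genes Cdkn2c and Cdkn2d thus had means on opposite sides of 0, and both had arrays of either sign. Limma called 0 of the 3, and 0 passed at an unadjusted p under 0.05, against 11.5% of all genes.

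**Figure D4:**
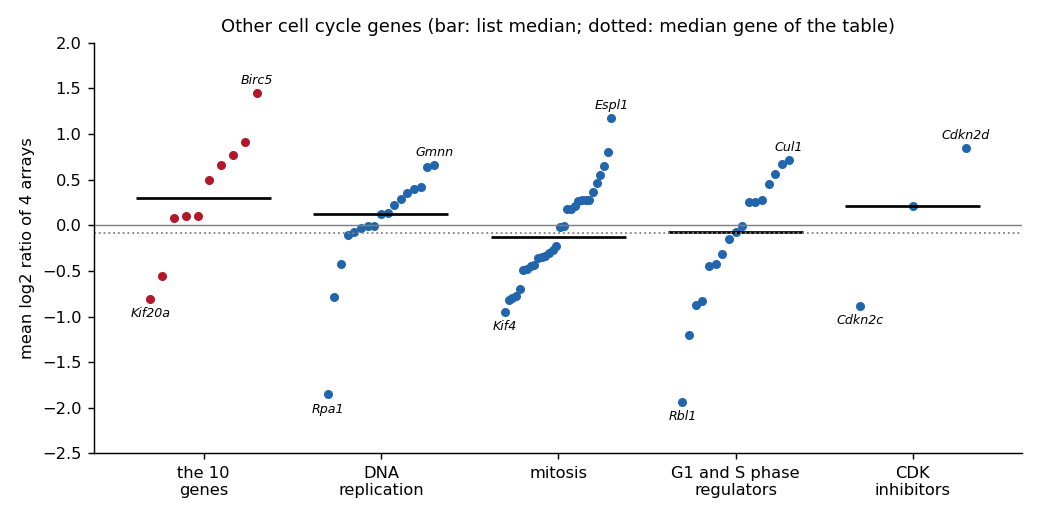
Mean log2 ratio over 4 arrays of each of the 10 genes (red) and of the measured genes of 4 cell cycle lists (blue), sorted within each list, with the list median (black bar) and the median gene of the table (dotted line, -0.08). The medians are 0.30 for the 10 genes and 0.12, -0.12, -0.08 and 0.21 for DNA replication, mitosis, G1 and S phase regulators and CDK inhibitors.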

How the data were processed

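The authors deposited 1 table of log2 ratios for 4 two-colour arrays of 1 comparison (unit log2). Of the image analysis software and of any correction or normalization before deposit, nothing is given in the sources used here. The labels' protocols mention organs and control animals, although the samples are a cell line. Extreme ratios all lie above 0 on the first pair of arrays (63 and 120 values) and below it on the other (121 and 114). From this the sign of 1 dye orientation was taken to have been turned, which no source used here states. The pattern cannot decide it, because extremes that follow the line and not the dye would give these signs without turning. The platform annotation gave 1 gene symbol to 14030 of 20355 rows and several to 5, and left 6320 unnamed. All 10 member symbols matched the RefSeq gene table.

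Rows 1 to 6000 were used as they stand. In rows 8001 to 18000 arrays 2 to 4 were read 3 rows higher, and from row 18301 on 4 rows higher; the other 2300 rows and the 418 values beyond 15 either way were left out. Probes were averaged per gene, and 6327 genes with 4 values were fitted with limma 3.58.1 (R 4.3.3) as a mean plus a dye term, with Benjamini-Hochberg adjustment over all of them. The number of arrays limits the precision. The fit was tested on simulated data. The genes named from the lists have 1 sign on all arrays and a mean beyond 0.5, at most 4 in each direction of a list, and every measured CDK inhibitor; the few others are marked as named after their values were seen. The members and lists were chosen with earlier results of these data known. Alternatives were other centring, model, rows, extreme values, probe averages, completeness and variances, and each array left out.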

Additional observations from a re-analysis of the deposited data

Results flagged for a closer look

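The 10 members, 13 other named genes and 4 group means were checked for 1 array far from the other 3, by the gap to the nearest array over the range of all 4 against Dixon's 95% critical value; chance gives about 1 in 20. There were 5 such genes. Array 1 was the low one for 4 members: Birc5 (0.10 against 1.77 to 2.02, gap over range 0.868), Mcm5 (-0.32 against 0.88 to 1.09, 0.852), Ccnd2 (-1.32 against -0.33 to -0.27, 0.941) and Ccna2 (-1.17 against 0.38 to 0.56, 0.901). Any such array was found for 6.69% of all genes. Birc5 and Ccnd2, and Ccna2 in part, rest on rows where arrays 2 to 4 were read with an offset against array 1. Array 3 was the high one for Espl1 (3.64 against 0.27 to 0.48, 0.938).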

How the results depend on the processing

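Under every alternative limma called 0 of the members with a fit; their smallest adjusted p was 0.243. Of 148 values of members under alternatives, 12 changed sign, all of them values of Birc5, Pcna or Ccna2. Settings of rows and offset could not move members with probes only in the first 6000 rows. Many of the 148 values were therefore fixed in advance. Birc5 was -0.24 with all rows as deposited and -0.033 with the lower-row offset 1 row smaller. Pcna was -0.078 in rows 1 to 6000 only, -0.20 as deposited and -0.22 with the offset 1 row larger, and its means without 1 array ran from -0.30 to 0.49. Ccna2 was -0.081, -0.17 and -0.090 under these 3 settings, -0.41 with the offset 1 row smaller, and -0.31 to 0.46 without 1 array. Gmnn was -0.45 as deposited. Chaf1a was -0.18 with the offset 1 row larger. Cdkn2c was 1.01 with it 1 row smaller and 0.20 with it 1 row larger.

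Limma's 0 calls over all genes became 6 without the dye term, 3 with the median of probes and 3 with arrays scaled to a common spread. Genes at an unadjusted p under 0.05 (730) numbered 276 in rows 1 to 6000 only, where fewer genes were tested, and 355 to 981 without 1 array, lowest without array 2. The mitotic minus replication difference was 0.83 without Kif20a and -0.04 to 0.35 without 1 array; in rows 1 to 6000 only, Birc5 and Ccnd2 had no value and the difference could not be formed. The DNA replication median was -0.15 as deposited and 0.012 to 0.32 without 1 array. The mitosis median was -0.28 in rows 1 to 6000 only, -0.27 as deposited, -0.28 with at least 3 arrays, -0.011 with the offset 1 row larger and -0.22 to -0.048 without 1 array. The G1 and S phase median was -0.25 with the offset 1 row larger and -0.25 to 0.053 without 1 array. The CDK inhibitor median was 0.58 with the offset 1 row smaller. The causes were not tested. The shifted offsets and the common spread were added after the data were seen, as were the difference without Kif20a and the equal weights. Single-gene fits without 1 array weigh both dye orientations equally, whereas group differences, means and medians are plain means of the arrays left; with equal weights the difference was 0.088 to 0.29. Fits without 1 array also take in genes missing on that array. No paired analysis was possible because the arrays form 1 group.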
